A study of Homo sapiens with 16 samples.

Results

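The genes described here encode the SR proteins and the heterogeneous nuclear ribonucleoproteins (hnRNPs), the most abundant families of splicing regulators. They were taken by symbol: SRSF followed by a number, or HNRNP followed by letters and digits. Of 28207 human genes in the files, 37 matched, 12 SRSF and 25 HNRNP, after 4 pseudogene symbols ending in P and a number were dropped. The series sequenced RNA of the human osteosarcoma line U2OS, with 2 replicates in each of 8 groups and thus 16 libraries. Every group is the same cell line carrying a genotype label that joins a number (zdna1, zdna2, zdna3 or zdna4) to an arm (CC or CL), and the series title names MYC, the FACT histone chaperone and Z-DNA. What the numbers and arms stand for is not explained in the labels, so neither arm serves as a control, and differences between arms are given as CL over CC. The reference of each number holds 1 extra contig of its own. The labels do not say whether replicates came from separate cultures, so each p-value measures only the spread between these libraries, which may be technical.

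SR proteins carry RNA recognition motifs and a domain rich in arginine and serine, bind exonic enhancers and recruit the spliceosome to nearby splice sites. The hnRNPs coat nascent transcripts, and many of them bind silencers and oppose SR proteins at the same exons. Many genes of both families hold poison exons whose inclusion sends their own mRNA to nonsense-mediated decay, and transcripts with and without such an exon count as 1 gene here. MYC is known to raise the transcription of SRSF1, HNRNPA1 and HNRNPA2B1 in other cells, which is why its recognition sequence was looked up in these promoters.

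Promoter windows are shown for HNRNPF, HNRNPK and HNRNPR, on which differences described below fell and which each have a window with CGCGCG. HNRNPM is shown because its window holds both sequences searched, and SRSF6 because its copies of CGCGCG overlap in 1 unbroken run. Not every gene with a difference described below is shown. The windows are RefSeq's on GRCh38.p14 (the expression files use hg19), from 250 bases before to 50 bases after the start, and 34 of the 37 genes had at least 1, with 48 windows in all. Capitals mark CACGTG, the E-box that MYC with MAX recognises, or CGCGCG, an alternating purine and pyrimidine stretch of the kind that can take the Z form. Both motifs read the same on the 2 strands. The windows are chr10:43397228-43397527 on the minus strand (the second of the HNRNPF windows), chr9:83980566-83980865 on the minus strand (the first of HNRNPK), chr19:8444725-8445024 on the plus strand (HNRNPM), chr1:23344235-23344534 on the minus strand (HNRNPR) and chr20:43457646-43457945 on the plus strand (SRSF6), each written 5′ to 3′ on its gene's strand.
HNRNPF: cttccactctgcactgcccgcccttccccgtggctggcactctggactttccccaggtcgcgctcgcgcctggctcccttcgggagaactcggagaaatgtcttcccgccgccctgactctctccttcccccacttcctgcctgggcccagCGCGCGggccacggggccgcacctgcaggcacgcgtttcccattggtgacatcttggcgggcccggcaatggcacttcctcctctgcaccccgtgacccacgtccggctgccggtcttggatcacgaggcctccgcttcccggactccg
HNRNPK: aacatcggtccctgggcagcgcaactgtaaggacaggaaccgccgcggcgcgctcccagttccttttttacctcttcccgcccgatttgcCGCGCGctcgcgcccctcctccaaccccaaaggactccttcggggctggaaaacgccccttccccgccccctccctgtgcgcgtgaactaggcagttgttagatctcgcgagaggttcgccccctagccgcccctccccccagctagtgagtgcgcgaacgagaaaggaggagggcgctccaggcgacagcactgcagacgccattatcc
HNRNPM: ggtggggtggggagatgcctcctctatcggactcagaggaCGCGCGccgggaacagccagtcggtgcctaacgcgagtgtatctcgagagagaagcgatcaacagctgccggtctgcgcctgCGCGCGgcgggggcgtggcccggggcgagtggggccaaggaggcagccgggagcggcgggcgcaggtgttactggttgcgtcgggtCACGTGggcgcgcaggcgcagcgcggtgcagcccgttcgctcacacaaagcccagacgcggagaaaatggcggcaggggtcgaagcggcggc
HNRNPR: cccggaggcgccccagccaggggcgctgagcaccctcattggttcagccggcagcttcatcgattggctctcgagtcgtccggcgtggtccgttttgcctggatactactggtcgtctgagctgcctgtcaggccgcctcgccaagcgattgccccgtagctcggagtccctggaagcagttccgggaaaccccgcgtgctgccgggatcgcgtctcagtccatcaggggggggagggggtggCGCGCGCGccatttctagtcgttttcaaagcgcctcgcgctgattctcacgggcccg
SRSF6: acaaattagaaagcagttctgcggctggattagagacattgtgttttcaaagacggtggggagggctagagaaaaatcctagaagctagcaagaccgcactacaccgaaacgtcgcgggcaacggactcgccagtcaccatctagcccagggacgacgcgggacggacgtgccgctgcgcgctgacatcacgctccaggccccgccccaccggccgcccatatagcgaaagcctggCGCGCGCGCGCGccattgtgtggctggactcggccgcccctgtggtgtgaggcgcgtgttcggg
HNRNPM held CACGTG at -42 from the start and CGCGCG at -210 and -128. HNRNPF and HNRNPK held CGCGCG once in the windows printed, at -99 and -160, and in neither window CACGTG. HNRNPR held 2 overlapping copies of CGCGCG, at -7 and -5, and SRSF6 held 4, at -14, -12, -10 and -8. Every window printed thus holds a sequence searched. Among genes with differences described below that are not shown, the 4 windows of HNRNPH1 and those of HNRNPC and HNRNPU held neither sequence. Each HNRNPDL window held both. CACGTG was found in 8 of the 48 windows (16.7%), which belong to 7 genes, all HNRNP, against 7.26% of 35116 windows of all genes. Of the MYC targets named above, SRSF1 and HNRNPA2B1 held no CACGTG in their windows, and HNRNPA1 had no window. CGCGCG was found in 17 of 48 (35.4%), from 16 genes, against 16.4% of all windows. The median GC content was 64.0% in these windows and 58.7% in all, and its part in the motif shares was not tested. A match describes the letters only, and the motifs were chosen after expression values of these data had been seen.

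Depth was low. The reads assigned to human genes numbered 39335 and 40886 in the zdna4 CC libraries and 310187 and 225177 in zdna4 CL, with all others in between, so that 1 read was worth 3.20 to 27.0 CPM. CPM here is a read count divided by its library's scaled total. The mesenchymal and bone-matrix genes VIM (944 to 1893 CPM), COL1A1 (592 to 1207) and SPARC (486 to 1063) were found in all 16 libraries, as was CDH2 (62.7 to 214). Of the other 4 markers fixed for osteosarcoma cells RUNX2, the osteoblast regulator, had reads in 15 libraries (at most 52.8 CPM), ALPL in 11, COL1A2 in 7 and TWIST1 in 0. The blood markers HBB and CD3E were at 0, and PTPRC had reads in 7 libraries (at most 17.8 CPM). The epithelial marker EPCAM had reads in 11 libraries (at most 27.0 CPM). Summed levels lay between 0 and 81.0 CPM for 4 epithelial markers, with the highest library in zdna4 CC, and at most 17.8 CPM for blood and 27.0 CPM for neuronal markers. Olfactory receptor genes, which these cells are not known to express, summed to 1449 and 1492 CPM in zdna4 CC and to 55.3 to 396 CPM elsewhere. Spread evenly at that density, such reads would give at most 1.21 reads over the exons of any tested SRSF or HNRNP gene in a zdna4 CC library, a median of 4.17% of the reads counted. The highest share was 121%, in HNRNPA0, which had 1 read in zdna4 CC replicate 2.

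Levels were compared between genes as CPM per kilobase of exon. HNRNPA1, which binds exonic silencers and shuttles with mRNA to the cytoplasm, stood first with a median of 265 CPM per kb and a range of 184 to 302 over the 16 libraries. HNRNPK, a binder of C-rich RNA and DNA, followed at 227 (126 to 300), and HNRNPA2B1, which also sorts RNA for transport, at 212 (173 to 266). HNRNPAB had a median of 198 (134 to 237) and HNRNPU, the chromatin-bound scaffold attachment factor, 166 (119 to 208). The ranges of these 5 genes overlapped between every neighbour in this order. SR protein genes lay lower per length. SRSF1, an enhancer-binding factor with oncogenic activity, had a median of 76.5 CPM per kb (56.1 to 96.4), which places it 13th among the 37. SRSF2, the nuclear speckle protein SC35, followed at 64.0 (36.4 to 101) and SRSF5 at 61.3 (29.4 to 97.8). The ranges of these 3 SR genes overlap as well, and the top of each lies below the lowest HNRNPA1 library. The lowest tested gene was HNRNPA0, at 9.30 CPM per kb. HNRNPA1 has many processed pseudogene copies, and because only unique alignments were counted its level, like those of the similar HNRNPF, HNRNPH1 and HNRNPH2, is uncertain.

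**Figure D1:**
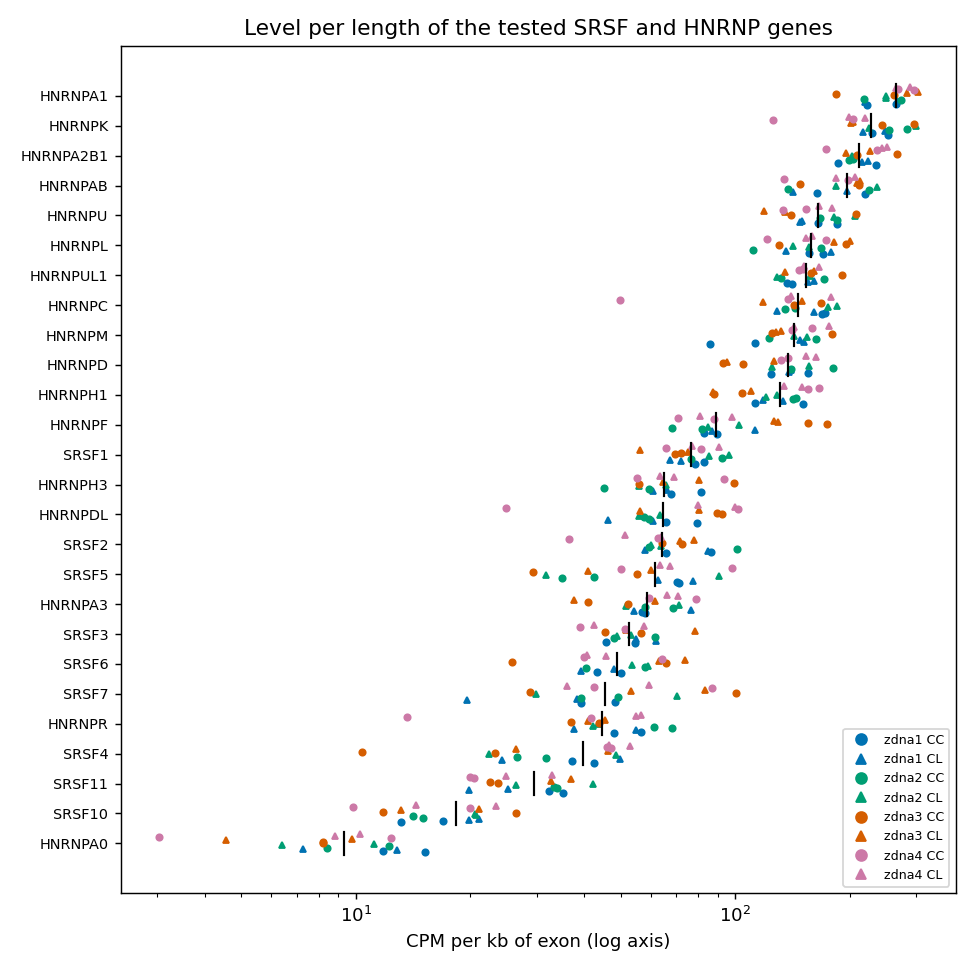
Level per length of the 26 tested genes, in CPM per kb of exon on a log axis, with 1 point per library (colour for the number, circle CC, triangle CL) and a black bar at the median of the 16 libraries. HNRNPA1 has the highest median, 265, SRSF1 the highest of the SR genes, 76.5, and HNRNPA0 the lowest, 9.30.

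A few genes carried most of the reads. HNRNPU alone took 11.2% of the reads of the 37 genes, the top 5 (HNRNPU, HNRNPA1, HNRNPA2B1, HNRNPK and HNRNPUL1) 41.8% and the top 10 63.8%. HNRNP genes together held 0.730% ± 0.050 (SD, n = 2) of human-gene reads in zdna4 CC, the lowest group mean, and 0.898% ± 0.033 in zdna4 CL, the highest. SRSF genes together ranged from 0.161% ± 0.024 in zdna4 CC to 0.196% ± 0.008 in zdna2 CL. Both zdna4 CC libraries lay below both zdna4 CL libraries in the HNRNP share (0.765% and 0.695% against 0.921% and 0.874%), while the SRSF shares overlapped (0.178% and 0.144% against 0.193% and 0.170%). The order of the groups depends on the denominator. As a share of the reads of tested genes the lowest group means were 0.922% in zdna3 CL for HNRNP (0.958% in zdna4 CC) and 0.191% in zdna3 CC for SRSF, and per length they were 0.330% and 0.0702%, both in zdna1 CL. These shares were not tested between groups, and the part of the higher olfactory receptor reads in zdna4 CC was not tested. In bulk RNA a lower level per cell and fewer expressing cells cannot be told apart. The ratio of HNRNP to SRSF reads ran from 3.99 to 6.15 over the libraries.

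**Figure D2:**
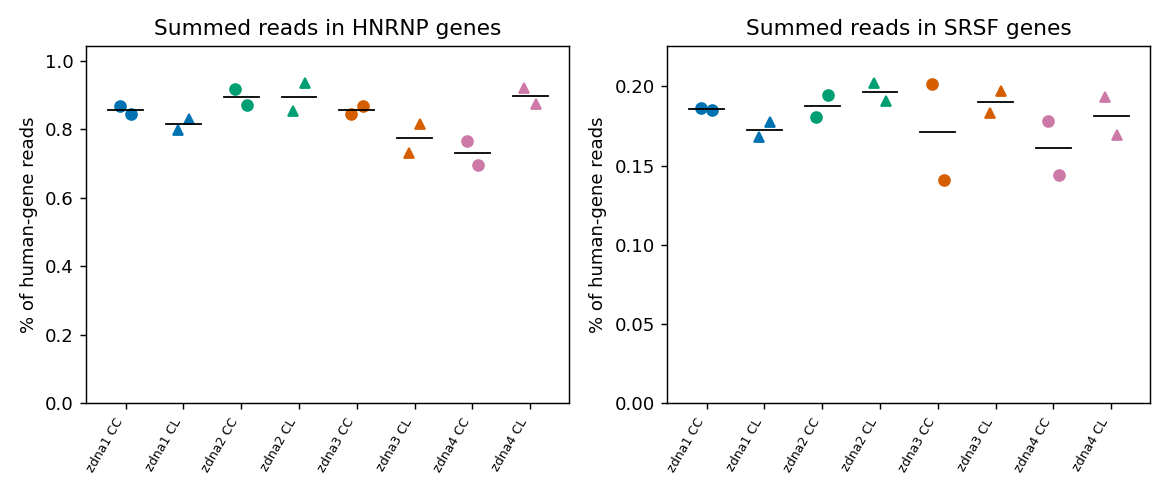
Percent of human-gene reads that fell in all HNRNP genes (left) and all SRSF genes (right), with 1 point per library and a black bar at the mean of the 2 replicates of a group. Over this denominator the HNRNP share is lowest in zdna4 CC, 0.730%, and highest in zdna4 CL, 0.898%, while the SRSF share lies between 0.161% and 0.196% in all group means.

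Of the 37 genes, 26 had a mean of at least 50 CPM and were tested, 9 SRSF and 17 HNRNP. The other 11 had few reads. SRSF8 had 66 reads over all libraries, SRSF9 88, HNRNPLL 97 and HNRNPUL2 61, with levels of at most 95.3 CPM in any library. SRSF12, the SRSF gene least expressed here, had 3 reads, HNRNPA1L2 15, HNRNPH2 3, HNRNPCL2 2 and HNRNPCL1 1, and HNRNPCL3 and HNRNPCL4 had 0. Reads over exons shared with another gene were not assigned to either, which touches several of these genes. HNRNPH2 (hg19 chrX:100663121-100669128, plus strand) shares 91.7% of its exonic length with the read-through gene RPL36A-HNRNPH2, HNRNPUL2 shares 45.9% with HNRNPUL2-BSCL2 and SRSF9 shares 42.6% with GATC. The exons of HNRNPCL1, HNRNPCL3 and HNRNPCL4 lie 86.0% to 100% on one another. Among tested genes the shared part was 14.7% in SRSF5, 10.4% in SRSF2, 8.01% in HNRNPH3 and under 2% in the rest.

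The tested genes had a lower median spread across the 16 libraries than all genes tested, at a higher level. The median SD of log2(CPM + 10) over all libraries was 0.29 in the 26 genes and 0.50 in the 4632 tested human genes, at median levels of 345 and 99.8 CPM. HNRNPUL1, a relative of HNRNPU, varied least (0.15, 544 to 803 CPM) and SRSF7, a splicing activator and mRNA export adaptor, most (0.58, 48.9 to 250 CPM). SRSF7 had as few as 3 reads in a library.

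In none of the 4 numbers did an SRSF or HNRNP gene differ between the arms past the threshold. With limma on log2(CPM + 10), two-sided, and Benjamini-Hochberg adjustment over 4632 genes at 0.05, 0 of 26 were called in zdna1, zdna2, zdna3 and zdna4, where 0.756%, 0.173%, 0.0864% and 1.17% of all genes were. edgeR's quasi-likelihood test and DESeq2 also called 0 in each. At an unadjusted p under 0.05 there were 1, 1, 1 and 3 members, against 10.6%, 6.58%, 6.56% and 10.4% of all genes. The median log2 difference of the 26 was -0.08 in zdna1, 0.05 in zdna2, 0.04 in zdna3 and 0.18 in zdna4, and that of all genes tested -0.00369, -0.00508, 0.06 and 0.08. Of the 9 tested SRSF genes 2, 6, 7 and 6 had a positive difference, and of the 17 HNRNP genes 6, 10, 7 and 13. Averaged over the numbers 0 of 26 were called by limma, edgeR or DESeq2 (0.432% of all genes by limma), with 0 at an unadjusted p under 0.05 against 9.28% of all genes. No member had the same sign in all 4 numbers, whereas 7.53% of all genes were higher in CL in all and 4.90% lower. On the scale of the deposited values, where the median of all genes was 0.73 in zdna3, 0.44 in zdna4 and 0.35 on average, 12, 2 and 17 members were called, with 22.2%, 4.56% and 21.9% of all genes.

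The intervals show how large an arm difference relative to most genes could have gone unseen. They do not cover a shift shared by most genes, which the scaling of the libraries removes. On the scale of the deposited values HNRNPA1 in zdna3 was 1.21, outside its interval of -0.016 to 0.83. In zdna1 the 95% interval lay within a 2-fold change either way for 22 of 26 genes, in zdna2 for 23, in zdna3 for 17 and in zdna4 for 15. For the average over the numbers all 26 lay within 2-fold and 21 within 1.5-fold. Those outside 2-fold in zdna3 include 7 SRSF genes (SRSF3, SRSF4, SRSF5, SRSF6, SRSF7, SRSF10 and SRSF11) with HNRNPDL and HNRNPA0. SRSF4, which had 1 to 38 reads per library, gave 0.97 in zdna3.

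**Figure D3:**
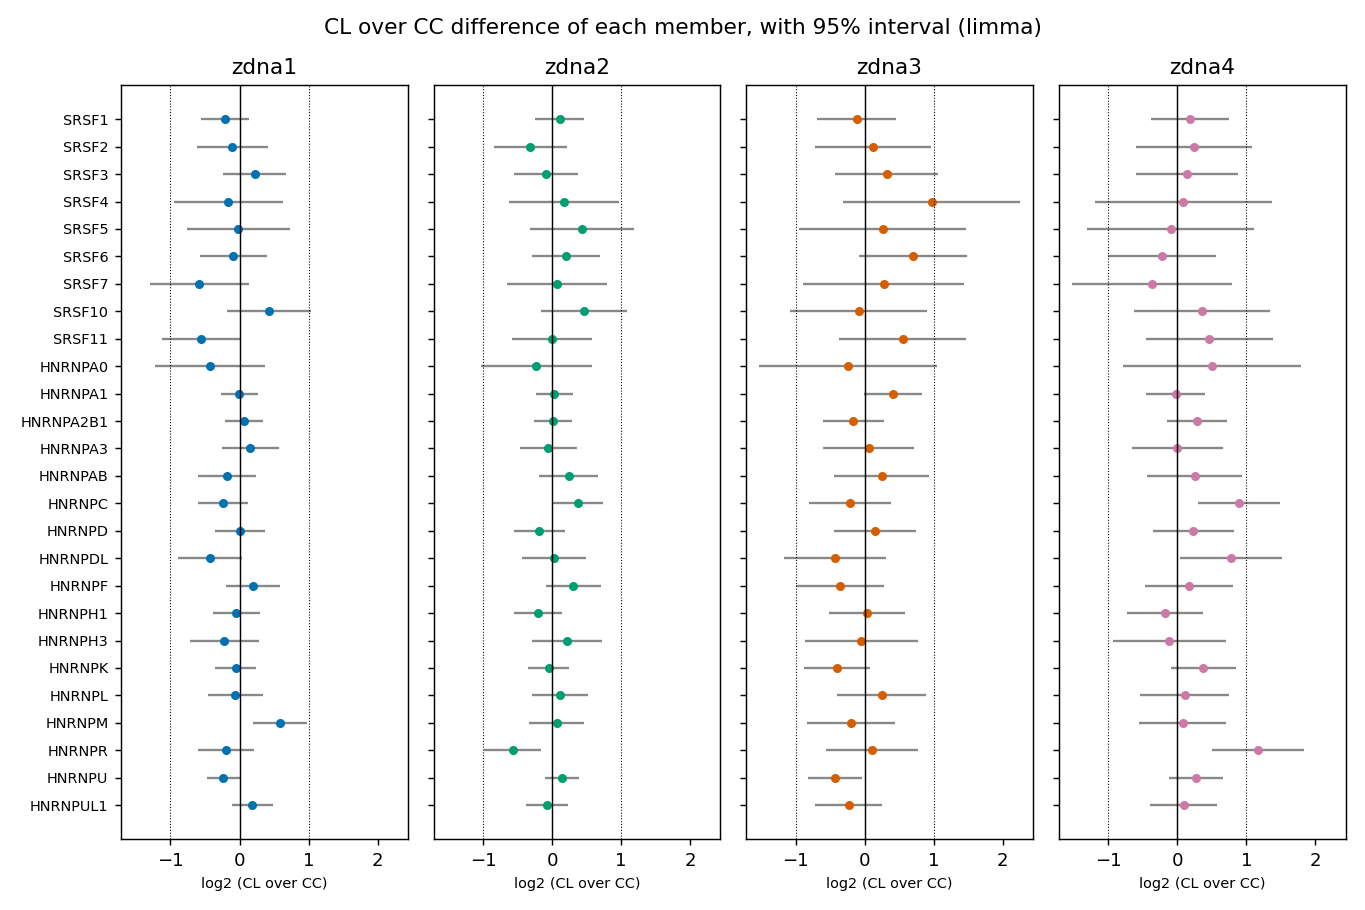
CL over CC difference (log2, horizontal axis) of each tested gene in each number, with the 95% interval from limma as a grey line. Dotted lines mark a 2-fold change, within which lie the whole intervals of 22, 23, 17 and 15 of the 26 genes in zdna1 to zdna4.

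The arm differences closest to the threshold were in HNRNP genes. HNRNPR (hg19 chr1:23631181-23670777, minus strand), a relative of SYNCRIP with a role in axonal mRNA transport, had 324 and 106 CPM in zdna4 CC and 426 and 438 CPM in zdna4 CL. The lower of the CC libraries rests on 4 reads. The difference was 1.17 (SE 0.33, limma adjusted p = 0.0599). In limma it passed the threshold with library totals (1.26, adjusted p = 0.0273) and with a filter at 20 CPM (1.31, adjusted p = 0.0196). The same held with a pseudocount of 50 CPM (0.998, limma adjusted p = 0.0387). On the scale of the deposited values, where the median of all genes was 0.44, it passed at 1.55 (limma adjusted p = 0.00495). Neither edgeR nor DESeq2 called the difference. With the settings used here it was 1.96 without zdna4 CC replicate 1 and 0.40 without zdna4 CC replicate 2. Its olfactory-density background would be 1.01 and 1.08 reads of the 12 and 4 counted. In zdna2 HNRNPR had 528 and 474 CPM in CC and 328 and 338 in CL, the opposite order, with a difference of -0.57 (SE 0.21, limma adjusted p = 0.516). The test that the arm difference is equal in all numbers called 0 of 26 members in limma (0.864% of all genes), with 4 members and 10.4% of all genes at an unadjusted p under 0.05; DESeq2 called 0 and edgeR's quasi-likelihood test 1, HNRNPR. In limma HNRNPR had an adjusted p of 0.0558 there.

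HNRNPC, which binds uridine tracts and packages nascent RNA, had 162 and 449 CPM in zdna4 CC and 579 and 455 in zdna4 CL. The difference was 0.90 (SE 0.30, limma adjusted p = 0.126), and the low CC library holds 6 reads. Without that library, replicate 1, the difference was 0.22 (limma adjusted p = 0.507), and without replicate 2 it was 1.61. HNRNPDL, a relative of the AU-rich element binder HNRNPD, had 432 and 106 CPM in zdna4 CC and 423 and 339 in CL, so the arms overlapped (0.78, SE 0.37, limma adjusted p = 0.424). The 2 zdna4 CC libraries thus disagree in different genes, replicate 1 being low in HNRNPC and replicate 2 in HNRNPR and HNRNPDL. Without replicate 1 the zdna4 differences included 1.96 in HNRNPR, 1.78 in HNRNPDL, 1.38 in HNRNPA0 and 0.54 in HNRNPA2B1. The CC arm of HNRNPA0 is then 1 read, no more than the background density gives. Without replicate 2 they included 1.61 in HNRNPC and 0.72 in HNRNPK, while HNRNPDL turned to -0.19. In such a fit the lone CC library is assumed to vary like the average group. It takes a weight of 1, against 0.303 for zdna4 CC libraries in the full fit. A call gained or lost wherever 1 library is left out thus cannot be read as an effect of that library alone.

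HNRNPM, known for splicing switches in the epithelial-mesenchymal transition, had 213 and 279 CPM in zdna1 CC and 377 and 368 CPM in zdna1 CL. The difference was 0.59 (SE 0.20, limma adjusted p = 0.177). HNRNPU in zdna3 had 963 and 1429 CPM in CC and 928 and 815 in CL, a difference of -0.43 (SE 0.20, limma adjusted p = 0.670). On the scale of the deposited values it was 0.39. Without zdna3 CC replicate 1 HNRNPU was -0.72, and without zdna3 CC replicate 2 it was -0.18. In the first of these fits HNRNPA1 was 0.65 and SRSF6 1.32.

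Between the numbers, with the arms averaged, a single gene of the 26 passed the test of any difference. It was HNRNPF, which binds runs of guanines with motifs shared by HNRNPH1 (limma adjusted p = 0.0184), and 8.85% of all genes passed. HNRNPF missed this test with a filter at 20 CPM (adjusted p = 0.0542), where HNRNPK and HNRNPU passed, without a filter (0.171) and without zdna2 CC replicate 2 (0.0517). By pair, 1 of 26 was called in zdna3 over zdna1 (4.49% of all genes), 1 in zdna3 over zdna2 (6.0%), 1 in zdna4 over zdna2 (2.48%) and 2 in zdna4 over zdna3 (4.75%). In zdna2 over zdna1 and zdna4 over zdna1, 0 were called by limma, edgeR or DESeq2 (2.50% and 0.691% of all genes by limma), with 2 and 3 members at an unadjusted p under 0.05, against 15.5% and 9.89% of all genes. No SRSF gene was called in any pair, and pairs with a number in common use the same libraries for it.

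HNRNPF (hg19 chr10:43881065-43904696, minus strand) was higher in zdna3. Its zdna3 libraries read 589 and 524 CPM in CC and 438 and 426 in CL. In zdna1 it had 301 and 279 CPM in CC and 293 and 380 in CL, and in zdna2 276 and 229 in CC and 286 and 344 in CL. In zdna4 it had 297 and 238 CPM in CC and 330 and 272 in CL. All 4 zdna3 libraries thus lie above the other 12, as they do in 2.18% of all genes, and HNRNPF is the 1 member of which this holds. The differences were 0.64 over zdna1 (SE 0.19, limma adjusted p = 0.0339), 0.78 over zdna2 (SE 0.19, adjusted p = 0.00556) and -0.77 for zdna4 over zdna3 (SE 0.23, adjusted p = 0.0324). On the scale of the deposited values, where the median of all genes was -1.50 and -1.37 in the first of these pairs and 1.40 in the last, HNRNPF read -0.97, -0.72 and 0.79, which is 0.52, 0.66 and -0.61 relative to that median. Without a filter the difference over zdna2 was 0.59 and not called (limma adjusted p = 0.105). Without zdna4 CC only the CL arms were compared, and zdna4 CL over zdna3 CL was -0.47 (limma adjusted p = 0.212). The zdna4 over zdna3 difference also missed the threshold without zdna3 CL replicate 1, zdna4 CL replicate 1 or zdna4 CL replicate 2. Over the fits that left out 1 library it ran from -0.86 to -0.68. The difference over zdna1 missed the threshold without any 1 of the 4 zdna1 libraries or zdna3 CL replicate 1 (0.54 to 0.72, adjusted p 0.0513 to 0.176).

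HNRNPH1 (hg19 chr5:179041179-179061785, minus strand), the close relative of HNRNPF, was lower in zdna3. The zdna3 CC libraries had 321 and 381 CPM and the CL libraries 318 and 401. Its zdna4 libraries read 567 and 607 CPM in CC and 547 and 491 in CL, and its zdna1 and zdna2 libraries lay between 410 and 549 CPM. The 4 zdna3 libraries lie below all the other 12, as in 1.04% of all genes, and HNRNPH1 is the 1 member with this order. The zdna4 over zdna3 difference was 0.63 (SE 0.20, limma adjusted p = 0.0475). It was not called by DESeq2 (adjusted p = 0.0532) or with library totals. Nor was it called with a filter at 20 CPM, without a filter, with a pseudocount of 2 CPM or with only the groups compared. Without zdna4 CC only the CL arms were compared, and zdna4 CL over zdna3 CL was 0.57 and not called (limma adjusted p = 0.0681). Leaving out 1 of zdna2 CL replicate 2, zdna3 CL replicate 1, zdna4 CL replicate 1 and zdna4 CL replicate 2 also ended the call (0.54 to 0.69). Against zdna1 and zdna2 the zdna3 level differed by -0.39 and -0.45 (limma adjusted p = 0.175 and 0.0874). HNRNPD, which targets AU-rich elements, also had its lowest mean in zdna3, 322 CPM ± 47.5 (SD, n = 4). Its means were 429 ± 40.0 in zdna1, 463 ± 74.4 in zdna2 and 451 ± 45.1 in zdna4. HNRNPD was not called in any pair with all libraries and the settings used here. In zdna3 over zdna2 (-0.51, limma adjusted p = 0.0677) it was called with library totals (-0.59), with a filter at 20 CPM (-0.60), without zdna3 CC replicate 1 (-0.56) and without zdna3 CL replicate 2 (-0.61), and in zdna4 over zdna3 without array weights (0.48).

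HNRNPK (hg19 chr9:86582998-86595697, minus strand), which also binds a C-rich element upstream of MYC, was lower in zdna4 than in zdna2. In zdna4 it had 405 and 660 CPM in CC and 708 and 643 in CL, and in zdna2 820 and 917 in CC and 726 and 968 in CL. The highest zdna4 library lies just below the lowest zdna2 library. The difference was -0.52 (SE 0.14, limma adjusted p = 0.0247), and the lowest zdna4 value, in CC replicate 1, rests on 15 reads. Without zdna4 CC only the CL arms were compared, and zdna4 CL over zdna2 CL was -0.29 (limma adjusted p = 0.119). The call was lost as well on the scale of the deposited values and with a pseudocount of 2 CPM. The same held without a filter, without array weights and with only the groups compared. Leaving out any of zdna2 CC replicate 1, zdna2 CC replicate 2, zdna2 CL replicate 2, zdna4 CL replicate 1 and zdna4 CL replicate 2 also ended the call (-0.56 to -0.42).

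**Figure D4:**
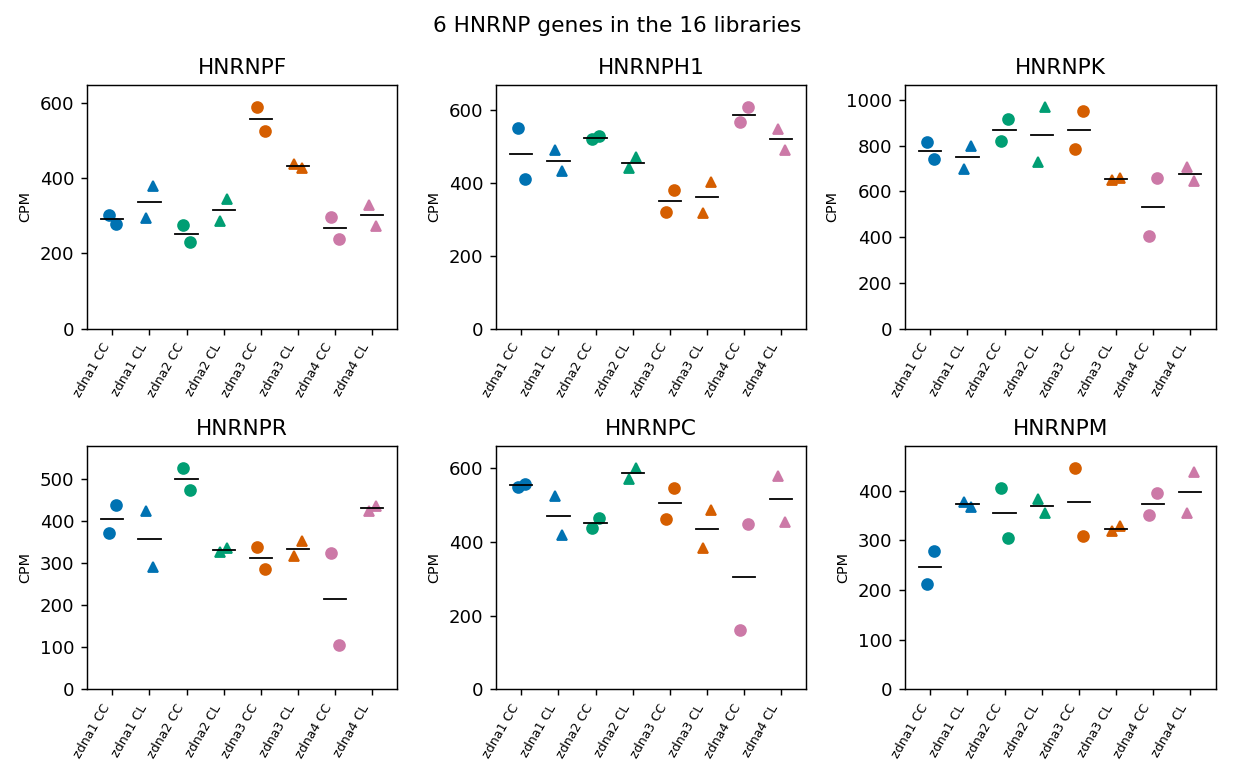
CPM of 6 HNRNP genes in each of the 16 libraries (linear axis from 0), by group, with circles for CC, triangles for CL and a black bar at the mean of the 2 replicates. HNRNPF is highest and HNRNPH1 lowest in the 4 zdna3 libraries, and HNRNPR, HNRNPC and HNRNPK each have 1 low zdna4 CC library.

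With all libraries, limma called no SRSF gene between numbers. The zdna3 over zdna1 difference was 0.73 in SRSF7 (SE 0.34, limma adjusted p = 0.237) and -0.58 in SRSF5. Without zdna3 CC replicate 2, which holds 3 SRSF7 reads, the SRSF7 difference was 1.15. The zdna4 over zdna3 difference was 0.89 in SRSF4. SRSF1, the SR gene of most reads (920), had -0.36 in zdna3 over zdna2 (SE 0.17, limma adjusted p = 0.208). Its level ran from 316 to 544 CPM over all libraries. SRSF3, the smallest SR protein, ran from 185 to 371 CPM, and SRSF10, a repressor when dephosphorylated, from 79.2 to 214 CPM.

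The partners of these families were followed in a list of 50 other splicing genes, among them the SR protein kinases (SRPK and CLK genes), the importer TNPO3, the SR-related matrix proteins SRRM1 and SRRM2, and RNA-binding relatives such as PTBP1 and SYNCRIP; 45 were tested. Between arms 1 of 45 was called, SRRM2, a speckle scaffold, lower in zdna1 CL (-0.47, limma adjusted p = 0.0207, with 0.756% of all genes called). The call was lost without any 1 of the 4 zdna1 libraries (-0.63 to -0.29, adjusted p 0.0518 to 1.00) and without array weights (adjusted p = 0.562). In zdna2, zdna3 and zdna4 0 of 45 were called by limma, edgeR or DESeq2, with 3, 2 and 3 at an unadjusted p under 0.05 in limma, against 6.58%, 6.56% and 10.4% of all genes. Any difference among numbers was called in 6 of 45 (8.85% of all genes), among them PRPF8 (the spliceosome's core protein), PTBP1, SFPQ, UPF1 and MATR3. In zdna2 over zdna1, where 2.50% of all genes were called, 3 rose (SYNCRIP 0.58, MATR3 0.51 and SFPQ 0.42) and 1 fell (PTBP1, a repressor at pyrimidine tracts, -0.56). Without array weights, or without a filter, none of these 4 was called, and of the 8 fits that each left out 1 zdna1 or zdna2 library SFPQ was called in 2, SYNCRIP in 1 and MATR3 and PTBP1 in 0. The importer TNPO1 was lower in zdna3 than in zdna2 (-0.56), and was called in 3 of the 8 fits that left out 1 of their libraries. The nonsense-mediated decay helicase UPF1 and PRPF8 were lower in zdna4 than in zdna2 (-1.36 and -0.48) and zdna3 (-1.47 and -0.54). Without zdna4 CC only the CL arms were compared, where the UPF1 differences were -0.53 and -0.78 and were not called. PRPF8 in zdna4 CL over zdna3 CL was -0.42 and not called either. Over the 8 fits that each left out 1 of the libraries compared, UPF1 ran from -2.16 to -0.56 over zdna2 (called in 1). Over zdna3 it ran from -2.27 to -0.67 (called in 4). PRPF8 was called in 2 of 8 such fits over zdna2 and 4 of 8 over zdna3. Of the pair calls named here DESeq2 made those of PTBP1 and of PRPF8 over zdna3 and not the others, nor did it call SRRM2 in zdna1.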

How the data were processed

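Total RNA of U2OS cells was extracted with Trizol and made into libraries with an Abclonal kit, per the labels' protocols. Reads were trimmed with Trim Galore 0.6.6, STAR and bedtools 2.29.2 were used, and hg19 and dm6 are named without roles, per the submitters' processing notes. Fragments over exons were counted by featureCounts 2.0.1 in paired mode on unique alignments with no strand option against hg19 plus 1 contig, per the file headers, so antisense reads cannot be told apart. The deposited values are a scaled signal, counts multiplied by 1 constant per library that is not stated in the sources used here. The word spikein occurs in a folder name of the deposited data, and whether the constants come from a spike-in is not stated. Whole reads were recovered within 0.1 read for at least 99.99% of nonzero values.

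Reads were scaled with TMM factors (edgeR 4.0.16) over the 4632 human genes of at least 50 CPM on average. CPM per sample in the text is on that scale. limma 3.58.1 was fitted on log2(CPM + 10) with 8 group means, array weights per group and a trend (R 4.3.3), and a log2 difference on this scale understates that of low genes. The weights ran from 0.303 in zdna4 CC to 2.66 in zdna4 CL, with 0.429 in zdna3 CC. A group left with 1 library took a weight of 1 in place of its own. Calls are two-sided at a Benjamini-Hochberg adjusted p under 0.05 over all genes, in 13 comparisons. The edgeR quasi-likelihood test and DESeq2 1.42.0 on the recovered reads, other scalings, filters and pseudocounts, a replicate block and leaving out libraries were alternatives. The fit was also run on simulated counts as a check of the code, and no rate of missed or false calls is taken from that run. Depth was 39335 to 310187 reads, and intervals cover the spread between libraries. The genes and lists were chosen with earlier results of these data known. Named are genes called in any comparison, the 3 SRSF and 5 HNRNP genes of highest level per length, those of unadjusted p under 0.05 between arms, the untested genes, and called genes of the other splicing list, of which 1 is not reported here. SRSF1, SRSF3, SRSF4, SRSF5, SRSF7 and SRSF10 between numbers, and HNRNPD, were added after their values were seen.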

Additional observations from a re-analysis of the deposited data

How the results depend on the processing

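Counts of SRSF and HNRNP genes called, out of 26, depended most on the scale. On the scale of the deposited values 17 were called for the averaged arms, 12 between arms in zdna3, 2 in zdna4, 2 for unequal arm differences, 26 for any difference among numbers, in zdna3 over zdna1, zdna3 over zdna2 and zdna4 over zdna3, and 0 in zdna4 over zdna2. On that scale 21.9% of all genes were called for the averaged arms, 22.2% between arms in zdna3, 94.5% for any difference, and 95.4%, 91.9% and 82.4% in those 3 pairs, and HNRNPF turned to -0.97, -0.72 and 0.79 and HNRNPU in zdna3 to 0.39. With library totals 1 was called between arms in zdna4 (1.75% of all genes), 1 for unequal arm differences (0.907%) and 3 for any difference (10.3%). By pair there were 4 in zdna3 over zdna2 (6.58%) and 1 in zdna4 over zdna3 (4.97%). For the settings that follow the share of all genes called is not given, so those counts cannot be read as particular to these families. edgeR called 1 for unequal arm differences, 2 for any difference and 2 in zdna3 over zdna2, and DESeq2 1 in zdna4 over zdna3. A pseudocount of 50 CPM gave 1 between arms in zdna4, 1 for unequal differences and 2 for any difference, and one of 2 CPM gave 0 in zdna4 over zdna2 and zdna4 over zdna3. A filter at 20 CPM gave 2 between arms in zdna4, 1 for unequal differences, 2 for any difference (HNRNPK and HNRNPU, not HNRNPF), 0 in zdna3 over zdna1, 4 in zdna3 over zdna2 and 1 in zdna4 over zdna3. Without a filter 0 were called for any difference, zdna3 over zdna1, zdna4 over zdna2 and zdna4 over zdna3, and 2 in zdna3 over zdna2 (HNRNPH1 and HNRNPU, not HNRNPF). Without array weights 2 were called for any difference, 0 in zdna4 over zdna2 and 3 in zdna4 over zdna3 (HNRNPF, HNRNPH1 and HNRNPD). With only the groups compared 2 were called in zdna3 over zdna2, 0 in zdna4 over zdna2 and 1 in zdna4 over zdna3. Without zdna4 CC the pairs with zdna4 compared the CL arms alone. There 1 was called in zdna4 over zdna1 (HNRNPDL) and 1 in zdna4 over zdna3 (HNRNPU), and in zdna4 over zdna2 HNRNPDL replaced HNRNPK. The cause was not tested.

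Leaving out each replicate in turn gave 0 to 0 called between arms in zdna1, in zdna2 and in zdna2 over zdna1, 0 to 3 in zdna3, 0 to 4 in zdna4, 0 to 1 averaged (HNRNPC, without zdna4 CC replicate 2), 0 to 3 for unequal differences, 0 to 5 for any difference, 0 to 2 in zdna3 over zdna1, 1 to 3 in zdna3 over zdna2, 0 to 4 in zdna4 over zdna1, 0 to 4 in zdna4 over zdna2 and 0 to 5 in zdna4 over zdna3. For unequal arm differences, 3 were called without zdna4 CC replicate 2 (HNRNPC, HNRNPK and HNRNPU), and HNRNPR was called without zdna1 CL replicate 1, zdna1 CL replicate 2, zdna3 CC replicate 1, zdna3 CC replicate 2 or zdna4 CC replicate 1. For any difference 5 were called without zdna3 CC replicate 2 or zdna4 CC replicate 2, and 0 without zdna2 CC replicate 2 (HNRNPF, limma adjusted p = 0.0517). In zdna4 over zdna1 without zdna4 CC replicate 2 the 4 were HNRNPC, HNRNPDL, HNRNPK and SRSF2. In zdna4 over zdna3, 0 were called without zdna3 CL replicate 1, zdna4 CL replicate 1 or zdna4 CL replicate 2, and 5 without zdna4 CC replicate 2. HNRNPDL between arms in zdna4 ran from -0.19 to 1.78. In each such fit the group left with 1 library took an average weight in place of its own. The share of all genes called is not given for these fits. Their counts thus cannot be read as particular to these families, or as effects of the library alone. HNRNPF in zdna3 over zdna2 was called in all 16 such fits, from 0.70 to 0.84, but not without a filter (0.59).

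Replicate numbers gave no sign of pairing, with correlations of deviations from -0.0195 to 0.0431 over 28 pairs, and a replicate block changed no count: 1 for any difference, in zdna3 over zdna1, in zdna3 over zdna2 and in zdna4 over zdna2, 2 in zdna4 over zdna3 and 0 elsewhere. Depth limits the genes of fewest reads, HNRNPA0 (173 reads in all, as few as 1 in a library), SRSF4 (181, 1) and SRSF5 (199, 2).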

Other observations

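The 4 pseudogene symbols left out held 5 reads in all 16 libraries together for HNRNPA3P1, 48 for HNRNPA1P33, 4 for HNRNPKP3 and 5 for HNRNPA1P10, against 1963 for HNRNPA1 and 1534 for HNRNPK. HNRNPA1P33 had up to 11 reads in a library and at least 1 in 13 libraries. The read-through genes RPL36A-HNRNPH2 and HNRNPUL2-BSCL2 had 0 reads, and their other partners RPL36A and BSCL2 had 3 and 2.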
